A study of Mus musculus with 12 samples.

Results

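Ch25h, the gene for cholesterol 25-hydroxylase, was followed together with 7 genes that sterols regulate or whose products handle sterols, Cyp7b1, Hmgcs1, Sqle, Insig1, Idi1, Srebf2 and Abca1, in glomeruli of mice with and without nephritis. These 8 genes, of 18193 on the arrays with a probe set of exactly 1 gene symbol, were listed by name. Ch25h was chosen by its log2 rise in nephritis in these same arrays, so that rise is given below as a description with no test. Each gene was represented by the one of its probe sets with the highest mean over all arrays, and 5 of the 8 genes had more than 1 probe set, 18 in all.

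The study set 2 inbred mouse strains side by side in anti-GBM glomerulonephritis (anti-GBM GN), a model in which serum raised against the kidney is injected and antibodies deposit along the glomerular basement membrane. All mice were female, 8 to 10 weeks old and bought from Charles River. There were 3 control and 3 challenged mice of C57BL6J, and likewise 3 and 3 of 129S2SvPAs (spelled 129S2SvPAS in the controls' labels). The groups are named here C57BL6J control and C57BL6J anti-GBM GN, and 129S2SvPAs control and 129S2SvPAs anti-GBM GN. Challenged mice received nephrotoxic serum on days 0, 1 and 2 and were killed on day 4. What the control mice received, and whether any group carried a further treatment, was not given in the sources used here. Glomeruli were taken through nylon sieves of 100 and 45 µm, and their RNA was hybridised to 1 Affymetrix array per mouse. The values are log2 probe set signals, on which a difference of 1 is a change by a factor of 2.

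Ch25h adds a hydroxyl group to cholesterol and so makes 25-hydroxycholesterol, an oxysterol that is best known as a product of macrophages and dendritic cells exposed to interferon or microbial signals. 25-hydroxycholesterol binds INSIG proteins, which then hold the SCAP and SREBP2 complex (SREBP2 is encoded by Srebf2) in the endoplasmic reticulum, so that SREBP2 does not reach the nucleus and the genes for cholesterol synthesis are transcribed less. Oxysterols also activate the nuclear receptors LXR, whose targets include the cholesterol exporter gene Abca1, and the enzyme CYP7B1 hydroxylates 25-hydroxycholesterol further, to a ligand of the chemoattractant receptor GPR183. The comparison asked whether the genes of sterol synthesis fell where Ch25h was high.

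The stretch before the transcription start is shown for 4 of the genes because it holds, or does not hold, the letters to which SREBP2 and its partner NF-Y are known to bind. RefSeq's table of promoters (mouse build GRCm38.p6) had an entry for 6 of the 8 genes, all but Sqle and Cyp7b1. The 250 bases upstream of the start are given 5′ to 3′ on the gene's own strand, at chr19:34475149-34475398 (minus strand) for Ch25h, chr13:119690101-119690350 (plus strand) for Hmgcs1, chr5:28071162-28071411 (plus strand) for Insig1 and chr13:8885356-8885605 (plus strand) for Idi1. Capitals mark the core CACNCCAC of a sterol regulatory element (GTGGNGTG on the other strand) and the CCAAT box (ATTGG on the other strand), to which NF-Y binds.
Ch25h: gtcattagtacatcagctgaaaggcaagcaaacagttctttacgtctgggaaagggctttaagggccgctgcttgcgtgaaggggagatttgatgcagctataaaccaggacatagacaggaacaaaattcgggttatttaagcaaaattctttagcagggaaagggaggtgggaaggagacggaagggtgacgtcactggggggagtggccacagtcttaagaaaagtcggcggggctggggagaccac
Hmgcs1: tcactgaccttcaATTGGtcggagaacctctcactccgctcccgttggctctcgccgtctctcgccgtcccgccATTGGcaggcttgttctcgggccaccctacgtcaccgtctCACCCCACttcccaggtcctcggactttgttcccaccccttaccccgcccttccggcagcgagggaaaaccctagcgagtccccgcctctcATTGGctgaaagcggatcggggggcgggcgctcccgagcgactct
Insig1: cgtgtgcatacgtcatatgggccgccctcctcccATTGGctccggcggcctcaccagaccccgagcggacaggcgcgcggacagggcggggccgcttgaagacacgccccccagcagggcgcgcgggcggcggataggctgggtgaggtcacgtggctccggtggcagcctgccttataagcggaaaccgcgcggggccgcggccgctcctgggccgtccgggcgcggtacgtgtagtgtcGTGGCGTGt
Idi1: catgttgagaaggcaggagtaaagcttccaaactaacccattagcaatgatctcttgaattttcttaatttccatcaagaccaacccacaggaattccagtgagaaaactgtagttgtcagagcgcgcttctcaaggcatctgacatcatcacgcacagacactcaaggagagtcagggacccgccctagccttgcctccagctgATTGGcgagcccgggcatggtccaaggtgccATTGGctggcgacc
The Hmgcs1 stretch held CACCCCAC 136 to 129 bases before the start and 3 CCAAT boxes, all of them read as ATTGG on the gene's strand. The Insig1 stretch held GTGGCGTG 9 to 2 bases before the start and 1 CCAAT box. The Idi1 stretch held 2 CCAAT boxes, 45 to 41 and 14 to 10 bases before the start, and the Ch25h stretch held neither motif. Of the other 2 genes with an entry, Srebf2 held 1 CCAAT box and Abca1 neither motif. The motifs did not overlap each other. Among all 32851 promoter windows of this length, 5.29% held CACNCCAC and 33.8% held CCAAT on either strand. Of the 14 cholesterol synthesis enzyme genes with an entry, 1 (Hmgcs1) held CACNCCAC and 14 held CCAAT. An enzyme gene was counted if any of its windows matched, while the percentages are over windows. Only exact matches within 250 bases were sought, so a gene without a match may still hold a site in other letters or further away. A match is a run of letters and not evidence of binding, and no binding was measured in this series.

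The arrays were alike in scale, with medians between 2.99 and 3.06, and many probe sets lay on a floor near these medians. 129S2SvPAs anti-GBM GN replicate 1 stood apart from its group, with correlations over genes of 0.973 and 0.974 to the other 2 arrays, which had 0.994 between them. Within the other 3 groups the correlations ran from 0.983 to 0.992. Several results are therefore given with and without it. Markers were read beside the tissue label. Group means of log2 signal ran from 10.56 to 12.24 for Podxl and from 4.40 to 7.70 for Nphs1, both podocyte genes. They ran from 13.59 to 14.12 for Miox, a proximal tubule gene, so the preparations held tubule RNA as well. The share of tubule RNA was not measured. In such bulk RNA, fewer cells of a type and less RNA per cell cannot be told apart. The p-values and SEs rest on 1 estimate of spread per gene, shared by the 4 groups of 3 mice and moderated over all genes. A wide spread in 1 group therefore also widens the SE of comparisons between other groups.

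Ch25h was near the floor in control glomeruli and high in every challenged mouse. Its log2 signals were 4.05, 3.30 and 3.22 in C57BL6J control and 9.24, 9.03 and 8.51 in C57BL6J anti-GBM GN. In 129S2SvPAs they were 3.09, 3.18 and 3.20 in controls and 7.33, 7.83 and 7.23 in anti-GBM GN. All 6 challenged arrays lay above all 6 control arrays, and within the challenged arrays the 3 of C57BL6J lay above the 3 of 129S2SvPAs. The rise was 5.40 (SE 0.25) in C57BL6J, rank 1 among 11920 genes by signed size, and 4.31 (SE 0.25) in 129S2SvPAs, rank 7. The rises differed by -1.10 (SE 0.36, 129S2SvPAs minus C57BL6J), and the challenged groups by -1.46 (SE 0.25). In the controls, which the choice of the gene did not use alone, the strains differed by -0.37 (SE 0.25, adjusted p = 0.451 in limma's moderated test). Since the control values lie near the floor, these rises may be understated.

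**Figure D1:**
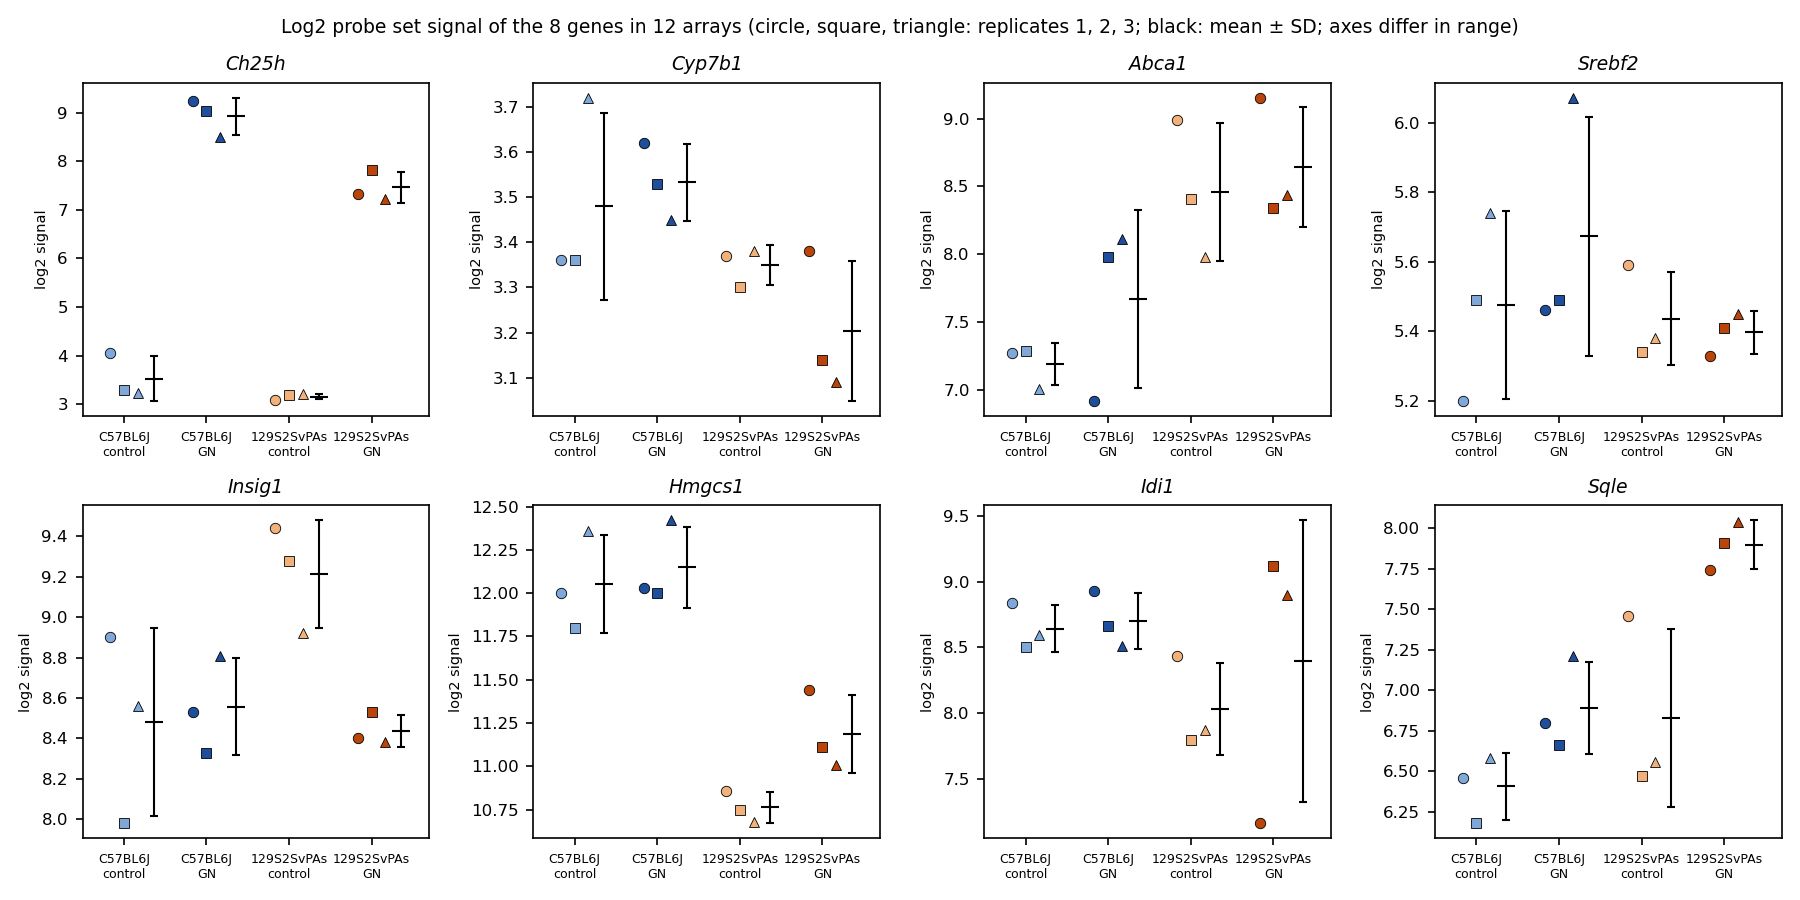
Log2 probe set signal (y axes, each with its own range) of the 8 genes in the 4 strain by treatment groups (x axes), with 1 point per array (circle, square and triangle for replicates 1, 2 and 3) and the mean ± SD of 3 arrays in black. Ch25h separates all challenged from all control arrays, Sqle is highest in 129S2SvPAs anti-GBM GN, Hmgcs1 is lower in 129S2SvPAs with or without nephritis, and 1 array of 129S2SvPAs anti-GBM GN is at 7.16 for Idi1 while the other 2 are at 9.12 and 8.90.

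Genes whose signals followed Ch25h most closely over the 12 arrays included a regulator of NF-κB and a contractile protein gene. The 5 highest Pearson correlations, given as a description with no p because the arrays share the treatment, were at Nfkbie (0.994), which encodes an inhibitor of NF-κB, Tagln (0.985), whose product transgelin binds actin, Ankrd1 (0.983), Ccdc184 (0.982) and Pf4 (0.980), a chemokine of platelets. The group means of Nfkbie in log2 signal were 5.60 in C57BL6J control, 7.83 in C57BL6J anti-GBM GN, 5.28 in 129S2SvPAs control and 7.18 in 129S2SvPAs anti-GBM GN. They stood in the same order as those of Ch25h, which were 3.52 ± 0.46, 8.93 ± 0.38, 3.16 ± 0.06 and 7.46 ± 0.32 (SD, n = 3). Of 8 tested interferon response genes, 4 rose in C57BL6J, where 4.78% of all genes tested rose, and 5 in 129S2SvPAs, where 10.6% rose. Their mean deviation from the mean over all arrays ran from -0.05 to 0.14 in C57BL6J control and from 1.22 to 1.87 in C57BL6J anti-GBM GN. In 129S2SvPAs it ran from -1.56 to -1.22 in controls and was -0.82, 0.16 and 0.06 in anti-GBM GN, so the challenged 129S2SvPAs arrays stood above their own controls and about level with, or below, the C57BL6J controls. The low value of -0.82 is that of the array that stood apart, and without it 6 of 8 rose in 129S2SvPAs (12.2% of all genes tested). Rsad2, the antiviral enzyme viperin, rose by 2.24 (SE 0.21, adjusted p = 0.000149) and 3.03 (SE 0.21, adjusted p = 1.12e-05) in turn, and Cxcl10, a chemokine for T cells, by 2.75 (SE 0.32, adjusted p = 0.000533) and 1.63 (SE 0.32, adjusted p = 0.00473). Between the strains, 6 of the 8 were lower in 129S2SvPAs controls (5.11% of all genes tested were) and 7 of 8 in 129S2SvPAs anti-GBM GN (4.89% were). Without the array that stood apart, 6 of 8 were lower in anti-GBM GN (4.81% of all genes tested).

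Markers of macrophages and other leukocytes, cells known to make 25-hydroxycholesterol, were called in neither strain's response but were in part lower in challenged 129S2SvPAs than in challenged C57BL6J mice. Of 10 listed, 7 were tested, and none was called in either response (7.09% and 20.3% of all genes tested were). In each, 2 of 7 had an unadjusted p under 0.05, against 2524 and 3957 of all 11920 genes tested. Between the challenged strains, where Ch25h differed by -1.46, 2 of 7 were lower in 129S2SvPAs (4.89% of all genes tested were), with a list median of -0.86. They were Ptprc, the leukocyte antigen CD45 (-1.97, SE 0.35, adjusted p = 0.00537), and Csf1r, the receptor of a macrophage growth factor (-1.49, SE 0.34, adjusted p = 0.0207). Between the controls 0 of 7 were called (8.43% of all genes tested were). The mean of Ptprc was already lower there, at 5.92 in 129S2SvPAs against 7.02 in C57BL6J, and that of Csf1r was 7.15 against 7.39. Itgam, Fcgr1 and C1qa lay at the floor, with group means of 2.00 to 2.50. The mean deviation of the marker list from its mean over all arrays ran from -0.18 to 0.59 in C57BL6J control and 0.12 to 0.91 in C57BL6J anti-GBM GN, and from -0.69 to 0.22 in 129S2SvPAs control and -0.53 to -0.45 in 129S2SvPAs anti-GBM GN. Of 7 mesangial and smooth muscle markers, 3 rose in C57BL6J (4.78% of all genes tested rose) and 4 in 129S2SvPAs (10.6% rose), the rest not passing the test, and the list ran from -1.09 to -0.25 over the controls and from 0.51 to 1.09 over the challenged arrays. The part of these cells in the rise of Ch25h was not tested.

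Of the other oxysterol enzymes, which act beside or after Ch25h, Hsd3b7 rose on average, Cyp27a1 fell in 129S2SvPAs, and Cyp7b1 was not called. Cyp7b1, which hydroxylates 25-hydroxycholesterol, had log2 signals of 3.36, 3.36 and 3.72 in C57BL6J control, 3.62, 3.53 and 3.45 in C57BL6J anti-GBM GN, 3.37, 3.30 and 3.38 in 129S2SvPAs control and 3.38, 3.14 and 3.09 in 129S2SvPAs anti-GBM GN. All 12 values lay close to the floor, and the groups overlapped in both responses, which were 0.05 (SE 0.13, adjusted p = 0.884) and -0.15 (SE 0.13, adjusted p = 0.471). Its other 2 probe sets did not pass the filter on low values. Hsd3b7, which oxidises the product of Cyp7b1 further, was higher by 0.46 on average over both strains (SE 0.11, adjusted p = 0.00914) and by 0.55 and 0.38 within C57BL6J and 129S2SvPAs, neither of them called. Cyp27a1, the sterol 27-hydroxylase of mitochondria, fell in 129S2SvPAs by 1.56 (SE 0.21, adjusted p = 0.000549) and stood at -0.59 (SE 0.21, adjusted p = 0.133) in C57BL6J. Gpr183, the receptor, did not pass the filter, with signals from 2.13 to 2.49 on all 12 arrays. Of 12 proximal tubule markers, 7 fell in 129S2SvPAs (9.77% of all genes tested fell) and 2 in C57BL6J (2.31% fell), and their part in the fall of Cyp27a1 was not tested.

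The genes listed beside Ch25h did not move one way where Ch25h was high. In C57BL6J none of the 7 was called, where 7.09% of all genes tested were. An unadjusted p under 0.05 was reached by 2524 of all 11920 genes tested and by none of the 7. Their differences between anti-GBM GN and control ran from 0.05 to 0.48. Leaving out 1 array, not the same one for each gene, turned 5 of them (Cyp7b1, Hmgcs1, Insig1, Idi1 and Srebf2) to or below 0, so these estimates have no settled direction. In 129S2SvPAs, where 20.3% of all genes tested were called, Sqle rose and Insig1 fell, and the other 5 genes were not called.

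Sqle, which encodes squalene epoxidase, rose in challenged 129S2SvPAs mice and on average over both strains. Its log2 signals were 6.46, 6.18 and 6.58 in C57BL6J control and 6.80, 6.66 and 7.21 in C57BL6J anti-GBM GN. In 129S2SvPAs they were 7.46, 6.47 and 6.56 in controls and 7.74, 7.91 and 8.04 in anti-GBM GN. The challenged arrays lay above the controls without overlap in each strain, narrowly in C57BL6J (6.66 against 6.58). The same held for 13.2% of all genes tested in C57BL6J and 16.4% in 129S2SvPAs. In Sqle, 129S2SvPAs control replicate 1 stood nearly 1 unit above the other 2 arrays of its group. The rise was 1.07 in 129S2SvPAs (SE 0.25, adjusted p = 0.0118) and 0.77 on average over both strains (SE 0.18, adjusted p = 0.00828), where 26.6% of all genes tested were called. In C57BL6J the difference was 0.48 (SE 0.25, 95% interval -0.07 to 1.03, adjusted p = 0.302). Fitted with only the 6 arrays of 129S2SvPAs, the rise there was no longer called (adjusted p = 0.0643). The difference between the strains' responses, 0.58 (SE 0.35, adjusted p = 0.626), was not called.

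Hmgcs1, which encodes the cytosolic HMG-CoA synthase at the entry of the pathway, had log2 signals of 12.00, 11.80 and 12.36 in C57BL6J control and 12.03, 12.00 and 12.42 in C57BL6J anti-GBM GN. The signals were 10.86, 10.75 and 10.68 in 129S2SvPAs control and 11.44, 11.11 and 11.01 in 129S2SvPAs anti-GBM GN. The groups overlapped in C57BL6J, and in 129S2SvPAs the challenged arrays lay above the controls, as they did for 16.4% of all genes tested. The responses were 0.10 (SE 0.17, 95% interval -0.29 to 0.48, adjusted p = 0.834) and 0.42 (SE 0.17, 95% interval 0.04 to 0.81, adjusted p = 0.116). Its 3 other probe sets well above the floor gave -0.13, -0.02 and -0.18 in C57BL6J and 0.05, 0.14 and 0.09 in 129S2SvPAs.

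Idi1, which encodes isopentenyl diphosphate isomerase, rested on 1 array. Its log2 signals were 8.84, 8.50 and 8.59 in C57BL6J control, 8.93, 8.66 and 8.51 in C57BL6J anti-GBM GN, 8.43, 7.79 and 7.87 in 129S2SvPAs control and 7.16, 9.12 and 8.90 in 129S2SvPAs anti-GBM GN. The value of 7.16, in the array that stood apart, was the lowest of the 12, and the other 2 arrays of its group lay above all 3 controls. With all arrays the response in 129S2SvPAs was 0.36 (SE 0.42, adjusted p = 0.608). Without that array it was 0.98 (SE 0.21, adjusted p = 0.00836), and 22.2% of all genes tested were then called. In C57BL6J it was 0.06 (SE 0.42, adjusted p = 0.970). That SE holds the spread of all groups, with SDs of 0.18 and 0.21 in C57BL6J control and anti-GBM GN and 1.07 in 129S2SvPAs anti-GBM GN. The second probe set of Idi1 gave 0.08 in C57BL6J and 0.33 in 129S2SvPAs with all arrays.

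Over the whole pathway the enzymes went both ways. Of 20 listed enzymes of cholesterol synthesis 17 were tested, and the other 3 were not analysed here. In C57BL6J 1 of 17 was lower (2.31% of all genes tested were) and none higher (4.78% were), and 11 of the 17 estimates lay below 0 and 6 above, with a median difference of -0.15 against -0.03 over all genes tested. The one that fell was Ebp, the sterol isomerase late in the pathway (difference -0.46, adjusted p = 0.0264). With the replicate number as a block in the fit, the count of enzymes that fell in C57BL6J was 0, and it was 0 also without any one of C57BL6J control replicates 1, 2 or 3 or of C57BL6J anti-GBM GN replicates 1 or 2. In 129S2SvPAs 1 of 17 (Sqle) rose, where 10.6% of all genes tested rose, and 3 fell, where 9.77% did. The median was 0.30 against 0.00. Those that fell were Ebp by 0.73 (SE 0.11, adjusted p = 0.000837), Tm7sf2, a sterol reductase, by 0.87 (SE 0.21, adjusted p = 0.0143), and Fdft1, squalene synthase, by 0.43 (SE 0.13, adjusted p = 0.0348). Proximal tubule markers fell in the same mice, 7 of 12, with the list at 0.49 to 0.70 in the controls and at -0.61 to -0.38 in the challenged group, and their part in the falls of these enzymes was not tested.

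Without 129S2SvPAs anti-GBM GN replicate 1, 4 of the 17 enzymes rose in 129S2SvPAs (12.2% of all genes tested did) and 3 fell (9.98% did), with a median of 0.18 against 0.01 over all genes. The 4 were Sqle (1.14, adjusted p = 0.0170), Idi1 (0.98, adjusted p = 0.00836), Msmo1 (0.91, adjusted p = 0.0389), the methylsterol monooxygenase, and Sc5d (0.72, adjusted p = 0.0245), the lathosterol oxidase. The 3 that fell were again Ebp, Tm7sf2 and Fdft1, by 0.71, 0.70 and 0.49. On average over both strains, 1 enzyme rose and 3 fell with all arrays, and 3 rose (Sqle, Idi1 and Fdps) and 3 fell without it (14.7% and 14.6% of all genes tested, 13.0% and 13.6% with it). The lower count on average was 1 without C57BL6J control replicate 1 or without C57BL6J anti-GBM GN replicate 2. Counted by arrays that did not overlap, 1 enzyme was higher and 2 lower in C57BL6J (13.2% and 16.0% of all genes tested), and 2 were higher and 3 lower in 129S2SvPAs (16.4% and 16.1%).

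**Figure D2:**
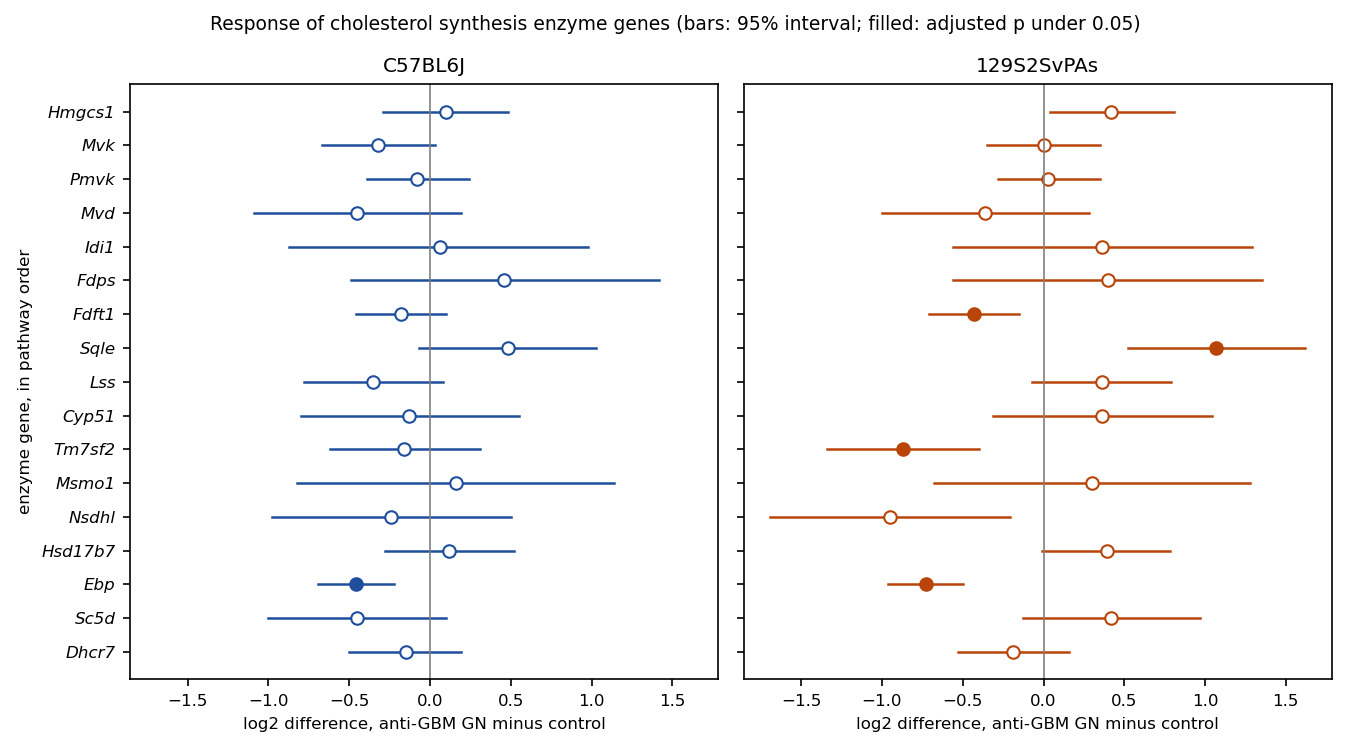
Log2 difference between anti-GBM GN and control (x axes) of the 17 tested cholesterol synthesis enzyme genes in pathway order (y axis), in C57BL6J on the left and 129S2SvPAs on the right, with 95% intervals as bars and genes at an adjusted p under 0.05 filled. In C57BL6J only Ebp is filled, at -0.46, and in 129S2SvPAs Sqle is filled at 1.07 and Fdft1, Tm7sf2 and Ebp at -0.43, -0.87 and -0.73.

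Among the genes of the sterol sensing machinery, Insig1 was lower in challenged 129S2SvPAs mice. INSIG1 retains SCAP in the endoplasmic reticulum, and its gene is itself a target of SREBP2. The log2 signals of Insig1 were 8.90, 7.98 and 8.56 in C57BL6J control, 8.53, 8.33 and 8.81 in C57BL6J anti-GBM GN, 9.44, 9.28 and 8.92 in 129S2SvPAs control and 8.40, 8.53 and 8.38 in 129S2SvPAs anti-GBM GN. The 2 groups of C57BL6J overlapped, and the 129S2SvPAs controls lay above all other arrays. The gene fell by 0.78 in 129S2SvPAs (SE 0.22, adjusted p = 0.0322) and stood at 0.08 in C57BL6J (SE 0.22, 95% interval -0.42 to 0.57, adjusted p = 0.912). The fall was lost as a call, at sizes from -0.82 to -0.66, without any one of 129S2SvPAs control replicates 1 or 2 or of 129S2SvPAs anti-GBM GN replicates 1, 2 or 3, with adjusted p of 0.110, 0.0821, 0.0636, 0.0644 and 0.0829, and with no filter on low values (0.0649). The responses of the strains differed by -0.85 (SE 0.32, adjusted p = 0.353), which was not called. The part of the proximal tubule markers, which fell in the same mice, in the fall of Insig1 was not tested either.

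Srebf2, which encodes the transcription factor itself, did not pass the test in either strain. Its log2 signals were 5.20, 5.49 and 5.74 in C57BL6J control, 5.46, 5.49 and 6.07 in C57BL6J anti-GBM GN, 5.59, 5.34 and 5.38 in 129S2SvPAs control and 5.33, 5.41 and 5.45 in 129S2SvPAs anti-GBM GN. The groups overlapped within each strain. The responses were 0.20 (SE 0.18, adjusted p = 0.611) and -0.04 (SE 0.18, adjusted p = 0.927), and the second probe set gave 0.26 and 0.48, also not called. Of the 7 listed genes for SREBP processing, all tested, none was called in C57BL6J, where 7.09% of all genes tested were. None of the 7 had an unadjusted p under 0.05 there, against 2524 of all 11920 genes tested. Only Insig1 was called in 129S2SvPAs, where 20.3% of all genes tested were. The median was -0.07 in both. Insig2, the second INSIG gene, stood at -0.18 and -0.25, and Srebf1, which encodes the factor for fatty acid synthesis, at -0.09 and 0.29. These arrays measure RNA, and the cleavage of SREBP2 that sterols control was not measured.

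Among LXR receptors and targets, Abcg1 rose and Apoe fell on average over both strains, and Abca1 was not called. Abca1, which exports cholesterol to lipid-poor apolipoproteins, had log2 signals of 7.27, 7.29 and 7.01 in C57BL6J control, 6.92, 7.98 and 8.11 in C57BL6J anti-GBM GN, 8.99, 8.41 and 7.98 in 129S2SvPAs control and 9.15, 8.34 and 8.44 in 129S2SvPAs anti-GBM GN. The groups overlapped within each strain. The responses were 0.48 (SE 0.34, 95% interval -0.28 to 1.24, adjusted p = 0.486) and 0.18 (SE 0.34, 95% interval -0.58 to 0.94, adjusted p = 0.787), and its other 2 probe sets did not pass the filter. Without the array that stood apart the response in 129S2SvPAs was -0.07 (SE 0.36, adjusted p = 0.929). Of 13 listed LXR receptors and targets 9 were tested. None was called in C57BL6J (7.09% of all genes tested were), with 1 of 9 at an unadjusted p under 0.05 (2524 of all 11920 were). In 129S2SvPAs 1 was called, as lower (20.3% of all genes tested were called). On average 2 were called, 1 as higher and 1 as lower (26.6% were called). The one in 129S2SvPAs was Apoe, the apolipoprotein of lipid transport (-0.89, SE 0.25, adjusted p = 0.0301), which was also the lower one on average (-0.70, SE 0.18, adjusted p = 0.0153). Abcg1, the other exporter, rose by 0.58 on average over both strains (SE 0.14, adjusted p = 0.0107), with 0.67 and 0.50 in C57BL6J and 129S2SvPAs, neither of them called alone. Mylip, whose product degrades lipoprotein receptors, stood at -0.24 and -0.61, and Nr1h3, the LXRα gene, at -0.40 and 0.06. The medians of the list, -0.09 and -0.04, lay near those of all genes, -0.03 and 0.00.

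Between the strains' control mice, Hmgcs1 was lower and Abca1 higher in 129S2SvPAs, and 8.43% of all genes tested were called, 3.32% as higher and 5.11% as lower. Hmgcs1 was lower by -1.29 (SE 0.17, adjusted p = 0.00109) in controls and by -0.96 (SE 0.17, adjusted p = 0.00642) in anti-GBM GN, where 8.38% of all genes tested were called, 3.49% as higher and 4.89% as lower. All 6 arrays of 129S2SvPAs lay below all 6 of C57BL6J. Its other 4 probe sets, fitted beside all 34945 and in order of their mean, gave -1.05 (adjusted p = 0.00679), -0.97 (adjusted p = 0.0375), -1.47 (adjusted p = 0.0895) and, near the floor, -0.74 (adjusted p = 0.213) in controls. In anti-GBM GN they gave -0.89, -0.79, -1.20 and -0.03 in the same order, and only the first was called (adjusted p = 0.0151).

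**Figure D3:**
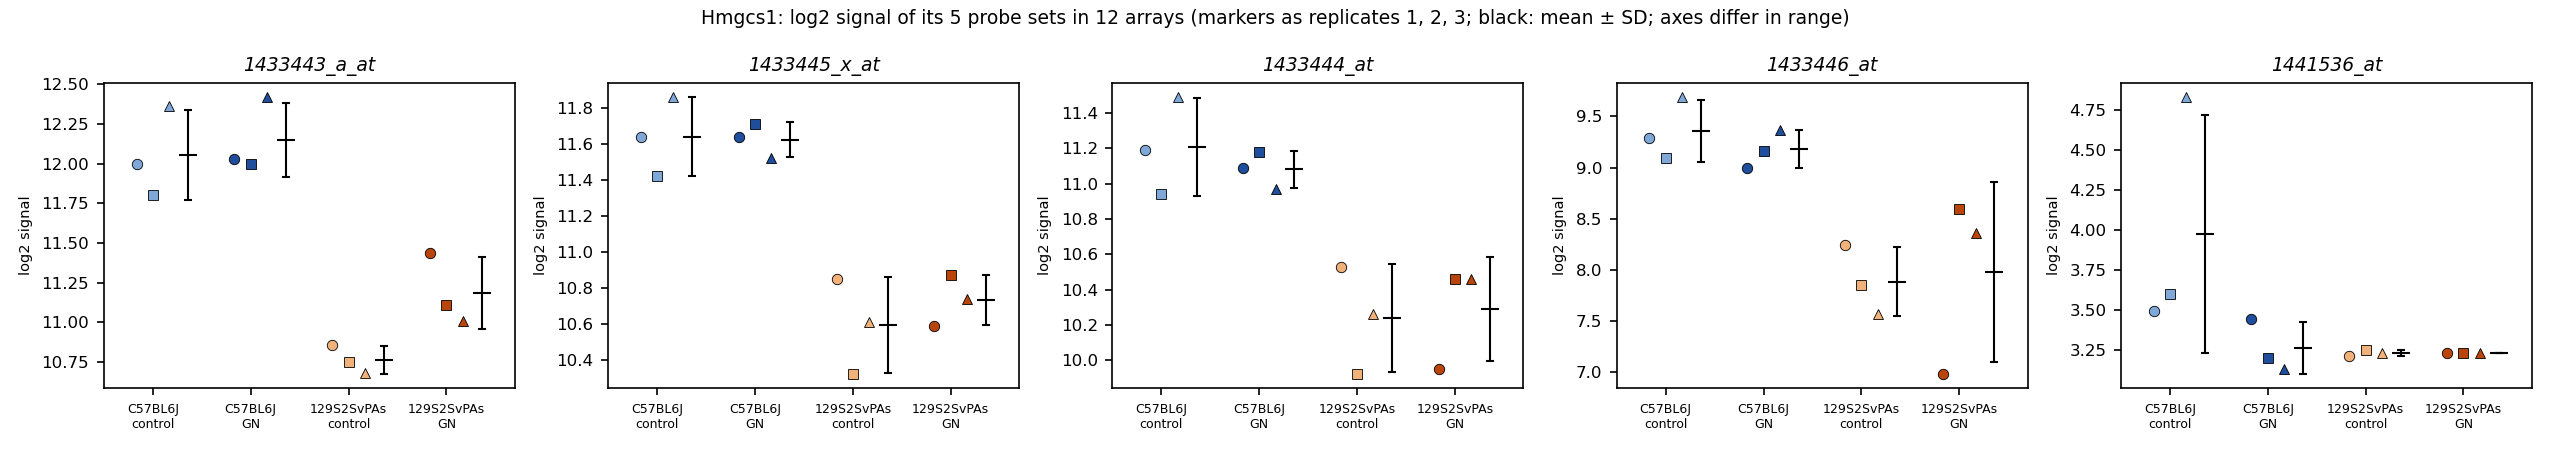
Log2 signal (y axes, each with its own range) of the 5 probe sets of Hmgcs1 in the 4 groups (x axes), with 1 point per array (circle, square and triangle for replicates 1, 2 and 3) and the mean ± SD of 3 arrays in black. In the first 4 panels the arrays of 129S2SvPAs lie below those of C57BL6J, and the last probe set lies near the floor in most arrays.

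The 5 genes most like Hmgcs1 over the 12 arrays, again by Pearson correlation and with no p, were Pld1 (0.972), which encodes phospholipase D1, Creb3 (0.955), a transcription factor of the endoplasmic reticulum membrane, Snapc1 (0.954), Tmem254a (0.949) and Slc52a3 (0.947), a riboflavin transporter. Pld1 had group means of 7.25 and 7.38 in C57BL6J control and anti-GBM GN and of 5.92 and 6.21 in 129S2SvPAs. Of 6 podocyte markers, 6 were lower in 129S2SvPAs controls (5.11% of all genes tested were) and 4 in anti-GBM GN (4.89% were), or 2 there without the array that stood apart. The podocyte list ran from 0.62 to 1.28 in C57BL6J control and from -1.04 to -0.21 in 129S2SvPAs control. All 8 endothelial markers had estimates below 0 in 129S2SvPAs controls against C57BL6J controls, with 1 called and a median of -1.17. Of 12 proximal tubule markers, 3 were higher in 129S2SvPAs controls (3.32% of all genes tested were) and 0 lower. The part of these 3 lists in the lower Hmgcs1, and in the other strain differences given here, was not tested.

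Abca1 was higher in 129S2SvPAs controls by 1.27 (SE 0.34, adjusted p = 0.0462), with no overlap of the arrays, and stood at 0.97 (SE 0.34, adjusted p = 0.123) in anti-GBM GN. The call in controls was fragile. With the replicate number as a block in the fit the adjusted p was 0.0708. It was 0.0541 with each array shifted to 1 median and 0.0954 with no filter. The call was also lost without any 1 of the 3 C57BL6J controls (adjusted p 0.0910, 0.119 and 0.137 without replicates 1, 2 and 3), without 129S2SvPAs control replicate 1 (0.159) or 2 (0.0828), and without C57BL6J anti-GBM GN replicate 2 (0.0602) or 129S2SvPAs anti-GBM GN replicate 2 (0.0581) or 3 (0.0637). Insig1 was higher in 129S2SvPAs controls by 0.73 (SE 0.22, adjusted p = 0.0729), not called with all arrays but called without C57BL6J control replicate 1 (0.94, adjusted p = 0.0326).

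Sqle was higher in 129S2SvPAs than in C57BL6J among challenged mice, by 1.01 (SE 0.25, adjusted p = 0.0307), and by 0.42 (SE 0.25, adjusted p = 0.364) among controls. The call in challenged mice was lost without C57BL6J anti-GBM GN replicate 1 or 2 (0.96 and 0.89, adjusted p = 0.103 and 0.119), without 129S2SvPAs anti-GBM GN replicate 2 or 3 (adjusted p = 0.0809 and 0.101), and with no filter (adjusted p = 0.0694). Of the other members, Idi1, Srebf2 and Cyp7b1 were called in neither strain comparison. Among challenged mice, then, 129S2SvPAs had the lower Hmgcs1 and the higher Sqle. These were the only calls there among the 17 synthesis enzymes, 1 as higher (3.49% of all genes tested were) and 1 as lower (4.89% were). The median of the 17 there was -0.06. In 129S2SvPAs controls, 1 of the 17 was higher (3.32% of all genes tested were) and 2 lower (5.11% were), with a median of 0.00. The higher one was Fdft1 (0.50, adjusted p = 0.0359), and the lower ones were Hmgcs1 and Sc5d (-1.25, adjusted p = 0.0112). The count of higher enzymes was 0 with the replicate number as a block, with only the control arrays fitted, and without any one of C57BL6J control replicates 1, 2 or 3, C57BL6J anti-GBM GN replicate 1 or 129S2SvPAs control replicate 3. It was 2 without 129S2SvPAs anti-GBM GN replicate 1 and under 4 other settings (quantile normalization, array weights, averaging a gene's probe sets, and the stricter filter on dim probe sets). The count of lower enzymes was 1 without C57BL6J control replicate 2 and when a gene's probe sets were averaged.

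The strains' responses to nephritis were also set against each other directly. Of all genes tested 0.562% were called in that difference, and none of the 7 genes other than Ch25h was, with 1 of 7 (Insig1) at an unadjusted p under 0.05. None of the 17 enzymes was called, with 3 at an unadjusted p under 0.05 and a median difference of 0.14. Over all 11920 genes tested, 1298 had an unadjusted p under 0.05 in that difference. The rise of Sqle and the fall of Insig1, called in 129S2SvPAs and not in C57BL6J, were therefore not shown to differ between the strains.

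**Figure D4:**
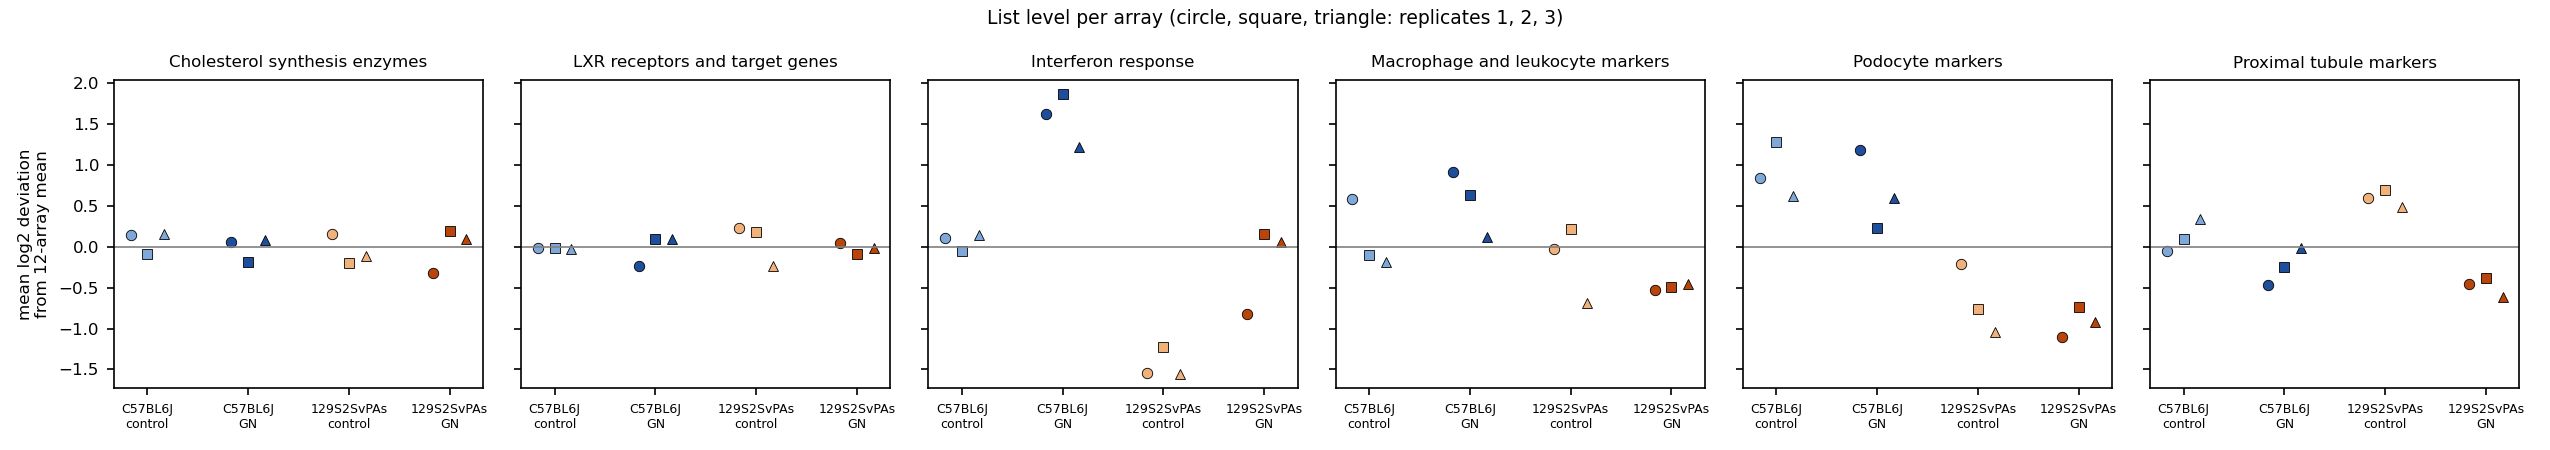
Mean log2 deviation of a gene list from its mean over the 12 arrays (y axis) for 6 lists, in the 4 groups (x axes), with 1 point per array (circle, square and triangle for replicates 1, 2 and 3). Cholesterol synthesis enzymes stay between -0.32 and 0.19 on all arrays, while interferon response genes reach 1.22 to 1.87 in C57BL6J anti-GBM GN and lie between -1.56 and -1.22 in 129S2SvPAs controls.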

How the data were processed

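What the authors deposited is a log2 signal per probe set for each of 12 Affymetrix arrays, 3 per group. Per the submitters' processing notes, the authors used MAS5 and GCRMA, with no version and without saying which made the values. No label states the scale, and log2 was inferred from a range of 1.12 to 15.02. Groups follow titles and treatment labels (the description text of controls also names the disease).

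Of 45037 probe sets, 34945 had 1 gene symbol, 932 several and 9160 none. Entrez identifiers of 34741 were found in RefSeq's gene table and 0 symbols changed. Genes were tested where their highest probe set exceeded the table median, 3.03, on at least 3 arrays, which left 11920, all 8 members among them. limma 3.58.1 (R 4.3.3) fitted 1 mean per group over all 12 arrays, with 6 contrasts and empirical Bayes moderation (10.7 degrees of freedom). Genes were called at a Benjamini-Hochberg adjusted p under 0.05 over all genes tested. Python 3.11.15 drew the sequences from RefSeq's promoter table.

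The members and lists were chosen with earlier results of these data known. Named are the 8 members with their probe sets, 10 fixed genes of which 8 had values here, up to 4 further called genes per list by lowest p in the average response, and the 5 genes most like Ch25h and Hmgcs1. Fdps, Msmo1, Nphs1, Podxl, Miox, Itgam, Fcgr1, C1qa, Ptprc and Csf1r were named after their values were seen. Alternatives were other normalizations, filters, probe sets, priors, array weights, arrays left out, and a replicate block. Same-numbered arrays deviated together between C57BL6J control and C57BL6J anti-GBM GN (correlations 0.208, 0.241 and 0.330) and between the controls of the 2 strains (0.244, 0.284 and 0.239), so the blocked value is given where it changes a call there. Between C57BL6J anti-GBM GN and 129S2SvPAs control the correlations were 0.098, 0.214 and 0.187. With 129S2SvPAs anti-GBM GN they ran from -0.380 to 0.183, all positive for replicate 2, all negative for replicate 1 and mixed for replicate 3. The labels do not say that a number marks a shared litter or day.

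In simulated data with 200 of 11920 genes changed, a log2 change of 1 was called for 64% of genes for the response in C57BL6J, 63% for that in 129S2SvPAs and 38% for their difference. A change of 2 was called for 97%, 94% and 87%, with 0 calls of the wrong sign.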

Additional observations from a re-analysis of the deposited data

How the results depend on the processing

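With 3 arrays per group, changes under 1 on the log2 scale can be missed, and genes near the floor, such as Cyp7b1 and the control values of Ch25h, can be understated. For the members, 945 alternative values of 43 differences gave 907 with the same call, 30 that lost a call, 8 that gained one and 0 called values of opposite sign. The 907 with the same call include 49 uncalled values that changed sign. The average rise of Sqle was called in all alternatives, with adjusted p from 0.000722 to 0.0224. With array weights the counts of all genes called were 2022 (C57BL6J response), 3827 (129S2SvPAs response), 286 (difference), 1601 (strains in controls) and 2256 (strains in anti-GBM GN), against 845, 2424, 67, 1005 and 999, and 4 enzymes rose in 129S2SvPAs and 3 on average. With array weights Insig1 was also called between the controls (0.88, adjusted p = 0.0248), Idi1 in the 129S2SvPAs response (0.91, adjusted p = 0.0199) and Cyp7b1 between challenged strains (-0.41, adjusted p = 0.0187). Fitting only the groups compared gave 1415 genes in the 129S2SvPAs response, 0 enzymes higher and 1 lower there, and 578 genes between challenged strains. A filter at the 75th percentile left 18 genes in the difference of responses. The replicate block left 33 there, 0 enzymes lower in C57BL6J and 0 higher between controls, ended the call of Abca1 between controls, and changed no other call of a member. Leaving out 1 array gave 407 to 1141 genes in the C57BL6J response (407 without C57BL6J anti-GBM GN replicate 2) and 0 to 1 enzymes lower. It gave 1 to 4 enzymes higher in 129S2SvPAs, and 1 to 3 higher and 1 to 3 lower on average. It gave 15 (without 129S2SvPAs control replicate 2) to 136 genes in the difference (without 129S2SvPAs anti-GBM GN replicate 1), 503 to 1288 between controls and 612 to 1117 between challenged strains. Without C57BL6J control replicate 2 the fall of Insig1 on average was called (-0.47, adjusted p = 0.0263). The cause of these changes was not tested.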

Other observations

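Genes of fatty acid synthesis, which SREBP1 and LXR are known to drive, were called about as often in 129S2SvPAs as genes at large, 2 of 10 against 20.3%. None of the 10 was called in C57BL6J, where 7.09% of all genes tested were. None of the 10 had an unadjusted p under 0.05 there, against 2524 of all 11920 genes tested. Elovl6, a fatty acid elongase, fell in 129S2SvPAs by 0.77 (SE 0.18, adjusted p = 0.0134), as did Fads2, a desaturase, by 0.75 (SE 0.21, adjusted p = 0.0290). Me1, the malic enzyme that supplies NADPH, was higher in 129S2SvPAs by 1.01 in controls (SE 0.18, adjusted p = 0.00593) and by 1.05 in anti-GBM GN (SE 0.18, adjusted p = 0.00477). Scd2, a desaturase, was lower in 129S2SvPAs controls by -0.95 (SE 0.23, adjusted p = 0.0269).

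Of 14 listed genes of sterol uptake and trafficking 10 were tested. In C57BL6J 1 was called (7.09% of all genes tested were) and in 129S2SvPAs 2 were (20.3% were), about as often as genes at large. Lipa, the lysosomal acid lipase, fell in both strains, by 0.58 in C57BL6J (SE 0.15, adjusted p = 0.0399) and by 0.69 in 129S2SvPAs (SE 0.15, adjusted p = 0.00735). Lrp1, a lipoprotein receptor, rose by 0.75 on average (SE 0.18, adjusted p = 0.0108). Gramd1c, a sterol transfer protein, fell in 129S2SvPAs by 0.51 (SE 0.15, adjusted p = 0.0318), a call lost without 129S2SvPAs anti-GBM GN replicate 1 (adjusted p = 0.0577), and Tmem97 was higher in challenged 129S2SvPAs than in challenged C57BL6J mice by 0.88 (SE 0.15, adjusted p = 0.00452). Proximal tubule markers fell in the same mice as Lipa, Elovl6 and Fads2, and their part was not tested.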
